A study of Mus musculus with 4 samples.

Results

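The 34 genes described here encode the proteins that bring pyruvate into mitochondria, convert it to acetyl-CoA and run the citric acid (TCA) cycle, with the enzymes that feed or drain the cycle and move its intermediates between mitochondria and cytosol. They were chosen by name, with earlier results of these data known. All 34 had a tested row of their own among the 14134 rows that the authors tested, of 25833 in the table. The samples were gastrocnemius, the large calf muscle, of C57BL/6J mice at 8 weeks of age. The groups were Fundc1-MKO mice, which carry a knock-out of Fundc1 restricted to muscle, and WT controls, with 2 libraries each that the labels call biological replicates. FUNDC1 sits in the outer mitochondrial membrane and marks mitochondria for mitophagy, their degradation by autophagy. The sources used here give neither the driver of the deletion, nor the exon removed, nor the number of animals behind a library. The labels name no allele or agent that the groups share.

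Pyruvate made by glycolysis enters the mitochondrial matrix through a carrier and is oxidised by the pyruvate dehydrogenase complex, which kinases switch off and phosphatases switch on. The acetyl-CoA joins oxaloacetate to form citrate, and the cycle then passes electrons to the respiratory chain while it regenerates oxaloacetate. In skeletal muscle the pyruvate dehydrogenase step decides whether carbohydrate or fat is burnt, and exercise and fasting are known to shift it.

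Each gene has 1 value per group, in FPKM, which scales fragments to transcript length and sequencing output, so that levels of different genes can be set side by side. Each value carries an interval from the authors. No library has a value of its own in what was analysed here, so no spread between animals can be given and the depth is unknown. Below, "rose" and "fell" are kept for genes with a q below 0.05 in the authors' deposited table. By that rule 3.17% of all tested rows were called, 0.92% higher and 2.25% lower in Fundc1-MKO. The SE printed with a log2 ratio is derived from the authors' intervals.

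The targeted gene was lower in the mutants: Fundc1 was at 4.23 FPKM in Fundc1-MKO, against 20.1 FPKM in WT, a log2 ratio of -2.25 (SE 0.23) with q = 0.00338 in the authors' deposited table. Of 14 fibre markers 7 were tested and the other 7, among them Ckm and Acta1, were set to HIDATA by the authors, meaning too many fragments, and are left out. Of the 7 tested, 6 were at lower FPKM in Fundc1-MKO and 1 at higher FPKM. The latter was Pvalb, at 6219 FPKM in Fundc1-MKO and 5705 FPKM in WT, and it was not called. Heart markers were low, with Myh6 at 0.358 FPKM in both groups. All 12 macrophage markers were at lower FPKM in Fundc1-MKO, summing to 251 FPKM in Fundc1-MKO and 319 FPKM in WT, and 8 of them fell. Of 10 slow and oxidative fibre markers, some of them also in the fibre list, 9 were at lower FPKM and Myh2, the type IIa myosin, fell. In whole muscle, fewer cells of a type and less RNA per cell cannot be told apart.

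Most of the pyruvate and TCA genes stood at almost the same level in both groups, and 1 gene of low expression was called. Of the 34 genes, none rose and 1 fell, which is 2.94% against 3.17% of all tested rows. The gene that fell was Me2, the NAD-dependent malic enzyme of mitochondria. Without adjustment, 3 genes, or 8.82%, had a p below 0.05 in the authors' deposited table, against 13.7% of all tested rows. These were Me2 and Aco1 at lower FPKM, against 8.97% of all tested rows, and Me3 at higher FPKM, against 4.68%. A looser q below 0.1 gave Me2 alone, against 4.92% of all tested rows, and so did a q recomputed over single-gene rows with a mean of at least 1 FPKM, against 2.87% of those rows. The authors' intervals of the groups lay apart for none of the 34 genes, against 0.715% of all tested rows. Summed over the 34 genes the level was 4928 FPKM in both groups. The median log2 ratio was 0.00, beside -0.02 over 12541 tested single-gene rows, and 19 genes were at higher and 15 at lower FPKM in Fundc1-MKO.

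**Figure D1:**
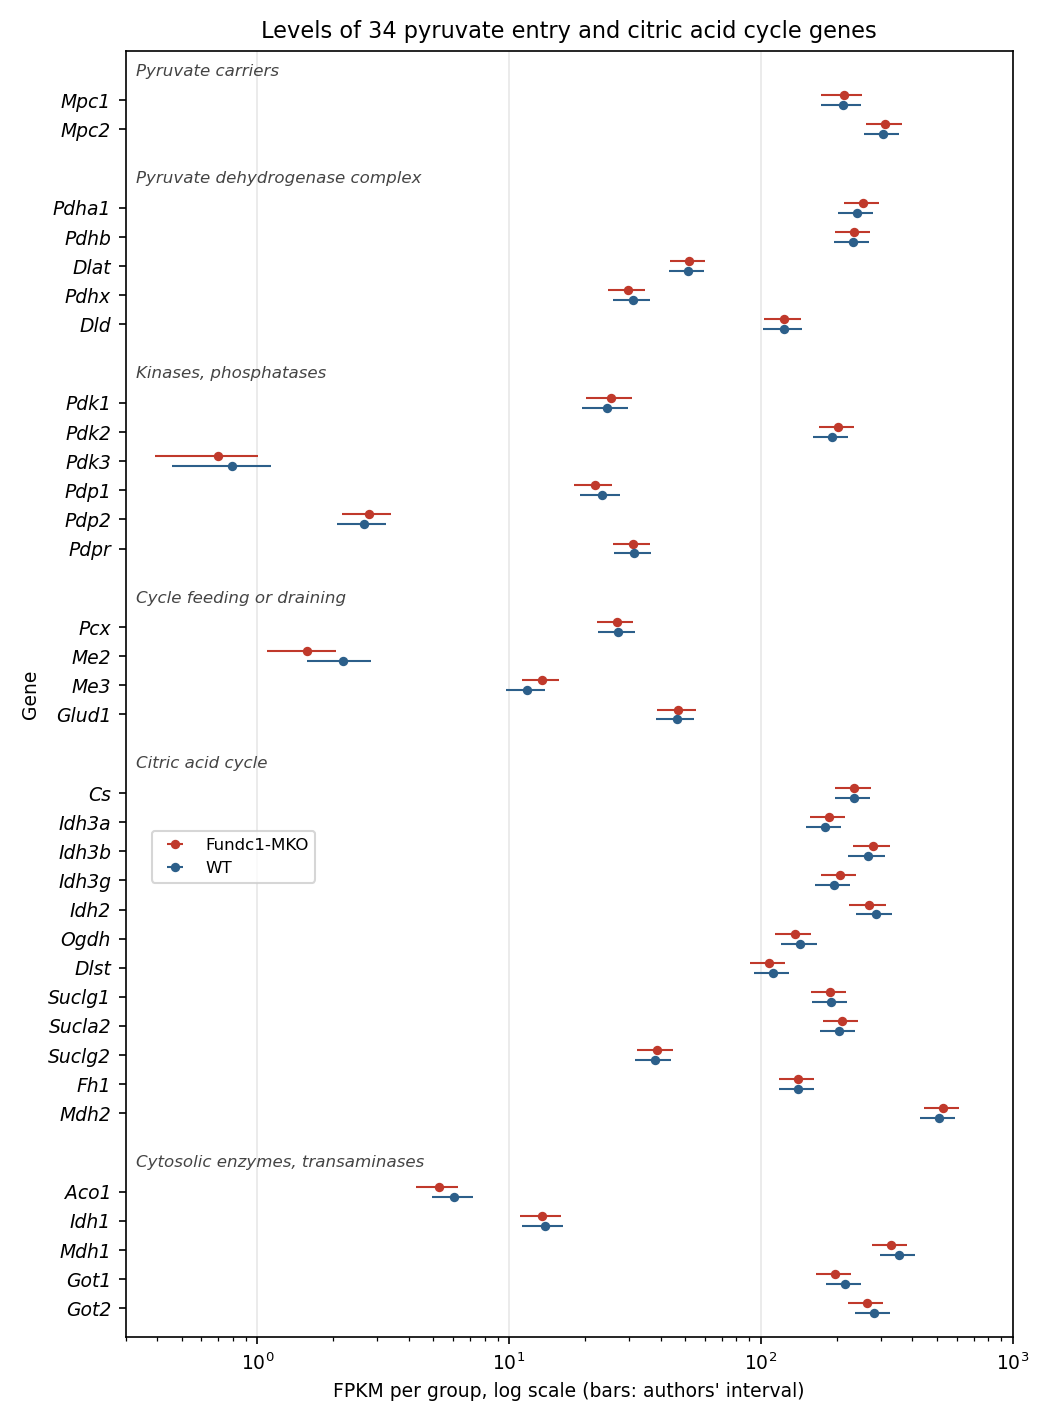
FPKM on a log scale (x axis) for each of the 34 genes (y axis, ordered by role), Fundc1-MKO above WT, with bars for the authors' interval. The intervals of both groups overlap for every gene shown, and the levels run from under 1 FPKM for Pdk3 to 529 FPKM for Mdh2 in Fundc1-MKO.

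Differences were small for most of the genes. In 30 of the 34, or 88.2%, the groups differed by less than 1.1-fold, beside 66.1% of the tested single-gene rows. Abundant genes differed less in general: among single-gene rows with a mean of 100 to 1000 FPKM the share was 85.9%, and 20 of 20 pyruvate and TCA genes at that level lay within 1.1-fold. Their median absolute log2 ratio was 0.05, as it was over the 660 single-gene rows of that level (0.05). The smallest change with a q under 0.05 at 100 to 1000 FPKM was 1.20-fold. That is the smallest among 18 called rows of that level, and a limit of detection was not determined. SEs at this level ran from 0.16 to 0.19 on the log2 scale. All 20 log2 ratios were smaller than their SE.

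**Figure D2:**
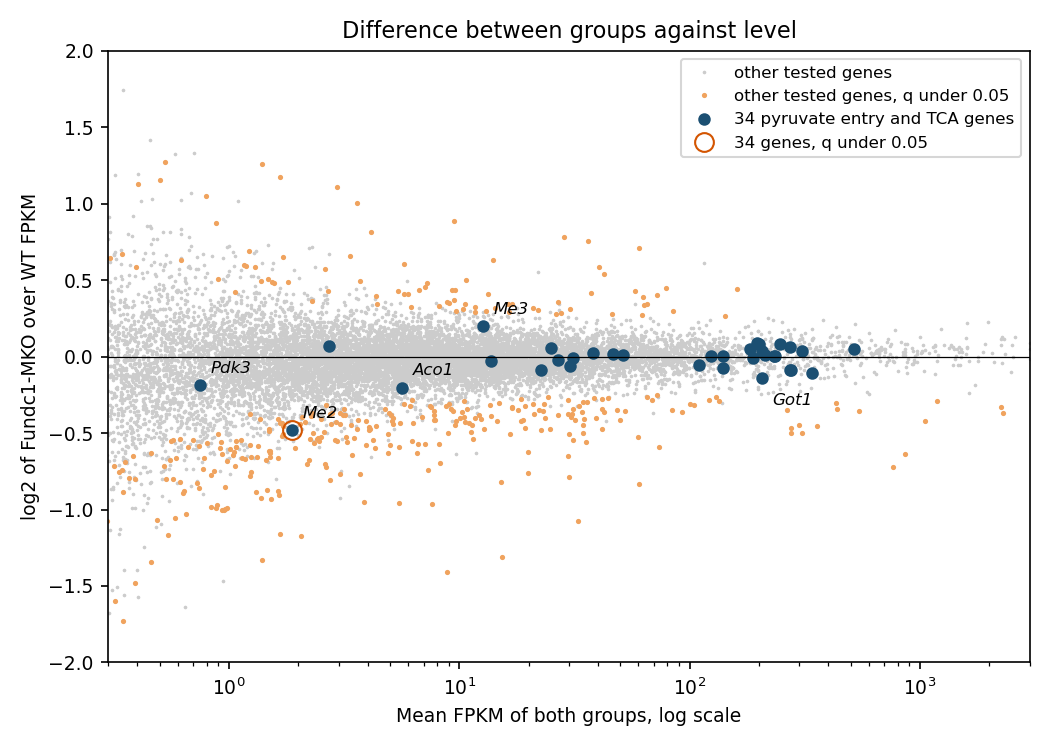
log2 ratio of Fundc1-MKO over WT (y axis, cut at -2 and 2) against mean FPKM of both groups (x axis, log scale, from 0.3 to 3000) for tested single genes in grey, those with q under 0.05 in orange, and the 34 genes in blue with a ring around Me2, the only one with q under 0.05. The 20 genes above 100 FPKM lie between -0.14 and 0.09, while Me2 lies at -0.48 and 1.89 FPKM.

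Mpc1 and Mpc2 form the mitochondrial pyruvate carrier, a heterodimer in the inner membrane. Mpc1 was at 213 FPKM in Fundc1-MKO and 212 FPKM in WT. Mpc2 was at 312 FPKM in Fundc1-MKO and 305 FPKM in WT. The log2 ratios were 0.01 and 0.04, far below their SEs of 0.19 and 0.16. Mpc2 made up 59.4% of the summed carrier FPKM in Fundc1-MKO and 59.0% in WT.

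None of the 5 genes of the pyruvate dehydrogenase complex was called. Pdha1, the X-linked alpha subunit of the decarboxylase E1, was at 255 FPKM in Fundc1-MKO and 241 FPKM in WT, and its partner Pdhb was at 233 FPKM in both groups. Dlat, the acetyltransferase core E2, was at 51.9 FPKM in Fundc1-MKO and 51.4 FPKM in WT. Pdhx, which binds the E3 component to that core, was at 29.7 FPKM in Fundc1-MKO and 31.0 FPKM in WT. Dld, the E3 dihydrolipoamide dehydrogenase that other 2-oxoacid dehydrogenases also use, was at 124 FPKM in both groups. The order of levels was thus the same in both groups, with both E1 subunits highest and Pdhx lowest. The log2 ratios ran from -0.06 for Pdhx to 0.08 for Pdha1.

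None of the 6 genes for kinases and phosphatases of that complex was called; the kinases inactivate E1 by phosphorylation. Pdk2, the most abundant of the 3 kinases among the 34 genes, was at 203 FPKM in Fundc1-MKO and 191 FPKM in WT, with a log2 ratio of 0.09 (SE 0.16) and q = 0.77 in the authors' deposited table. Pdk1 was at 25.5 FPKM in Fundc1-MKO and 24.5 FPKM in WT. Pdk3 was at 0.699 FPKM in Fundc1-MKO and 0.796 FPKM in WT, with a log2 ratio of -0.19 (SE 0.44) and q = 0.86 in the authors' deposited table. Of the phosphatases that reverse this, the calcium-stimulated Pdp1 was at 21.9 FPKM in Fundc1-MKO and 23.3 FPKM in WT. Pdp2 was at 2.79 FPKM in Fundc1-MKO and 2.66 FPKM in WT. Pdpr, the regulatory subunit of the phosphatase, was at 31.2 FPKM in Fundc1-MKO and 31.3 FPKM in WT.

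The fourth kinase, Pdk4, is not among the 34 genes and was called. Pdk4 is the isoform induced by fasting and fatty acids. It fell to 476 FPKM in Fundc1-MKO, against 610 FPKM in WT, a log2 ratio of -0.36 (SE 0.17) with q = 0.00338 in the authors' deposited table. The intervals overlap, at 397 to 554 FPKM in Fundc1-MKO and 508 to 711 FPKM in WT. Read against a normal distribution with adjustment, the authors' statistic gives no call for Pdk4. Pdk4 was the most abundant kinase in both groups, with 67.5% of the summed kinase FPKM in Fundc1-MKO and 73.8% in WT. Pdk2 held 28.8% in Fundc1-MKO and 23.1% in WT. With each gene moved to the bounds of its interval, the Pdk4 share spans 59.8% to 74.3% in Fundc1-MKO and 66.8% to 79.7% in WT, so the shares overlap.

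**Figure D3:**
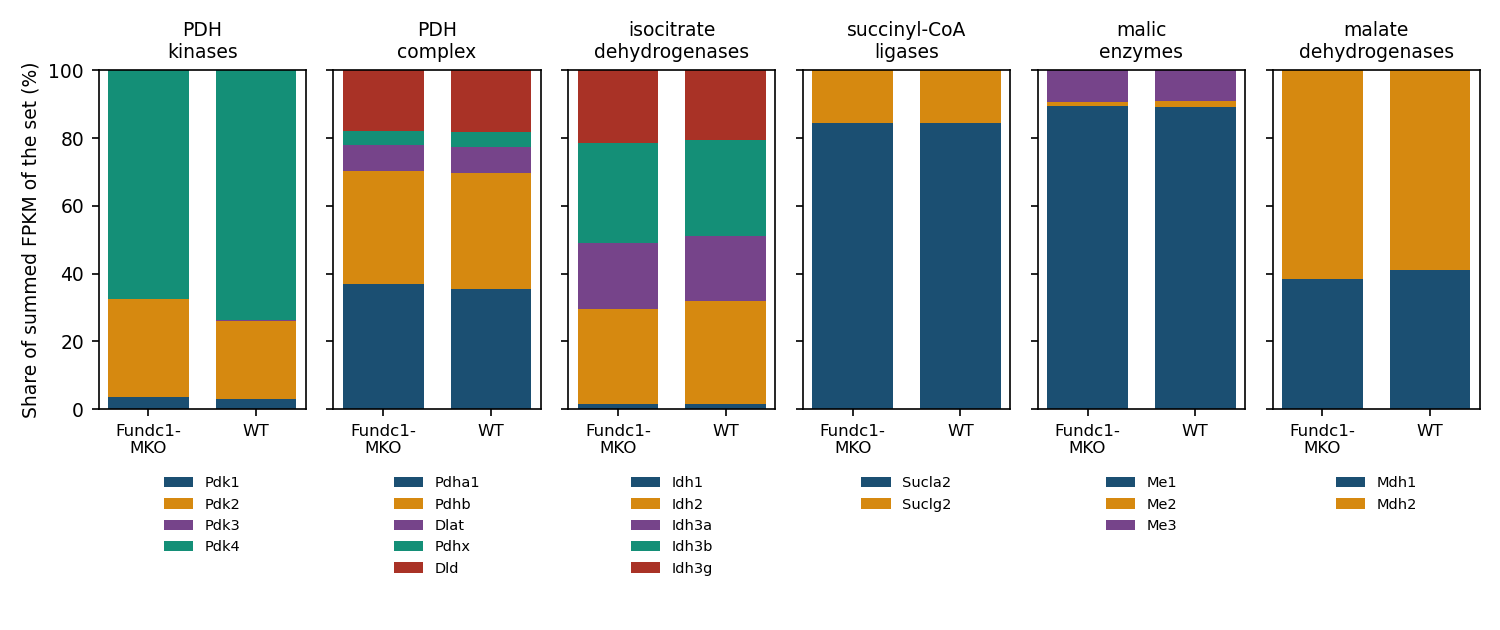
Share of the summed FPKM of each enzyme set in percent (y axis) held by each gene, with Fundc1-MKO left of WT. The kinase set shows the widest gap drawn, with Pdk4 at 67.5% in Fundc1-MKO and 73.8% in WT, while Sucla2 holds 84.5% in Fundc1-MKO and 84.4% in WT.

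The mitochondrial malic enzymes, with the other enzymes that feed or drain the cycle, held the only call and the widest range of log2 ratios. Roles were assigned with values in view, so this is not an independent result of the group. SEs were also wider at low levels. The median SE over tested rows was 0.27 at a mean of 1 to 5 FPKM and 0.165 at 100 to 1000 FPKM. Me2 oxidises malate to pyruvate in mitochondria. It fell to 1.58 FPKM in Fundc1-MKO (interval 1.09 to 2.06), against 2.199 FPKM in WT (interval 1.58 to 2.82), which is 1.40-fold lower. The log2 ratio was -0.48 (SE 0.30) with p = 0.00135 and q = 0.0439 in the authors' deposited table. With a pseudocount of 1 added to both FPKM values, the log2 ratio of Me2 was -0.31. Intervals of both groups overlap, and in 4201 tested rows with a mean of 1 to 5 FPKM 3.31% were called. Read against a normal distribution, the authors' statistic for Me2 gives p = 0.11, and none of the 34 genes passes after adjustment by that reading, beside 0.198% of all tested rows. The Me2 locus lies on chromosome 18 from 73765008 to 73815916 in mm10, and no other tested gene has the same deposited locus. Me2 is protein-coding and on the minus strand. Some macrophage and matrix genes also fell: of the 12 macrophage markers 8 fell and of 7 fibroblast markers 3 fell, while Dcn, the most abundant of these 7, was at 155 FPKM in Fundc1-MKO and 154 FPKM in WT. The marker sums were 251 FPKM (macrophage) and 271 FPKM (fibroblast) in Fundc1-MKO, against 319 FPKM (macrophage) and 308 FPKM (fibroblast) in WT, with no marker at 0. Their part in the result was not tested.

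Me3, the mitochondrial NADP-dependent malic enzyme, lay the other way. Me3 was at 13.5 FPKM in Fundc1-MKO (interval 11.2 to 15.8) and 11.8 FPKM in WT (interval 9.77 to 13.8), a log2 ratio of 0.20 (SE 0.17). It did not pass, with p = 0.022 and q = 0.24 in the authors' deposited table. Its locus, chromosome 7 from 89632818 to 89854359 in mm10 on the plus strand, overlaps an annotated antisense gene, and without strand their reads cannot be told apart. Me1, the cytosolic malic enzyme, is not among the 34 genes. It held 89.5% of the summed malic enzyme FPKM in Fundc1-MKO and 89.2% in WT, where Me2 held 1.1% in Fundc1-MKO and 1.7% in WT. Me1 itself was at 128 FPKM in Fundc1-MKO and 116 FPKM in WT, with q = 0.42 in the authors' deposited table. The deposited locus of Me1 is shared with another tested gene, A330041J22Rik. Pcx, pyruvate carboxylase, which makes oxaloacetate directly, was at 26.8 FPKM in Fundc1-MKO and 27.1 FPKM in WT. Glud1, glutamate dehydrogenase, was at 47.0 FPKM in Fundc1-MKO and 46.4 FPKM in WT.

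None of the 12 genes for enzymes of the cycle itself was called, and their log2 ratios ran from -0.09 for Idh2 to 0.08 for Idh3g. Cs, citrate synthase, whose activity is widely used as a measure of mitochondrial content, was at 235 FPKM in both groups. The 3 subunits of the NAD-dependent isocitrate dehydrogenase were each at higher FPKM in Fundc1-MKO. Idh3a was at 186 FPKM in Fundc1-MKO and 180.4 FPKM in WT. Idh3b was at 279.8 FPKM in Fundc1-MKO and 267.5 FPKM in WT. Idh3g was at 206 FPKM in Fundc1-MKO and 195 FPKM in WT, with a log2 ratio of 0.08 (SE 0.16) and q = 0.79 in the authors' deposited table. Idh2, which uses NADP, was at 268 FPKM in Fundc1-MKO and 285 FPKM in WT. Each of these differences was smaller than its SE.

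Further round the cycle, Ogdh, the E1 of the 2-oxoglutarate dehydrogenase complex, was at 136 FPKM in Fundc1-MKO and 143 FPKM in WT. Dlst, the E2 of that complex, was at 108 FPKM in Fundc1-MKO and 112 FPKM in WT. Ogdhl, a relative of Ogdh, is not among the 34 genes and was not called. It was at 0.496 FPKM in Fundc1-MKO and 0.724 FPKM in WT. Its log2 ratio was -0.54 (SE 0.42), with p = 0.0083 and q = 0.14 in the authors' deposited table. Succinyl-CoA ligase pairs the alpha subunit Suclg1 with an ADP-forming beta subunit, Sucla2, or a GDP-forming one, Suclg2. Suclg1 was at 188 FPKM in Fundc1-MKO and 189 FPKM in WT. Sucla2 was at 209.8 FPKM in Fundc1-MKO and 204 FPKM in WT, and Suclg2 at 38.5 FPKM in Fundc1-MKO and 37.9 FPKM in WT. The ADP-forming subunit thus held 84.5% of the beta subunit FPKM in Fundc1-MKO and 84.4% in WT. Fh1, fumarase, was at 140.3 FPKM in Fundc1-MKO and 140.1 FPKM in WT. Mdh2, the mitochondrial malate dehydrogenase, was the most abundant of the 34 genes in both groups, at 529 FPKM in Fundc1-MKO and 509.8 FPKM in WT.

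All 5 genes for cytosolic enzymes and aspartate aminotransferases were at lower FPKM in Fundc1-MKO and none was called, with log2 ratios from -0.20 to -0.03. The genes were grouped with their values in view, so the shared direction is not an independent result. Mdh1, Got1 and Got2 belong to the malate-aspartate shuttle, which carries reducing equivalents into mitochondria. Mdh1 was at 329 FPKM in Fundc1-MKO and 354 FPKM in WT. Got1, the cytosolic aminotransferase, was at 196 FPKM in Fundc1-MKO and 216 FPKM in WT, the widest gap on the log2 scale among the genes above 100 FPKM, with a log2 ratio of -0.14 (SE 0.16) and q = 0.48 in the authors' deposited table. Got2, its mitochondrial counterpart, was at 264 FPKM in Fundc1-MKO and 280.5 FPKM in WT. Idh1 was at 13.5 FPKM in Fundc1-MKO and 13.8 FPKM in WT. Aco1, a cytosolic aconitase that turns into an iron-responsive RNA-binding protein when iron is scarce, was at 5.27 FPKM in Fundc1-MKO (interval 4.28 to 6.26) and 6.06 FPKM in WT (interval 4.95 to 7.18). Its log2 ratio was -0.20 (SE 0.19), and it did not pass, with p = 0.031 and q = 0.28 in the authors' deposited table. Aco1 lies on chromosome 4 from 40143265 to 40199009 in mm10, on the plus strand.

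**Figure D4:**
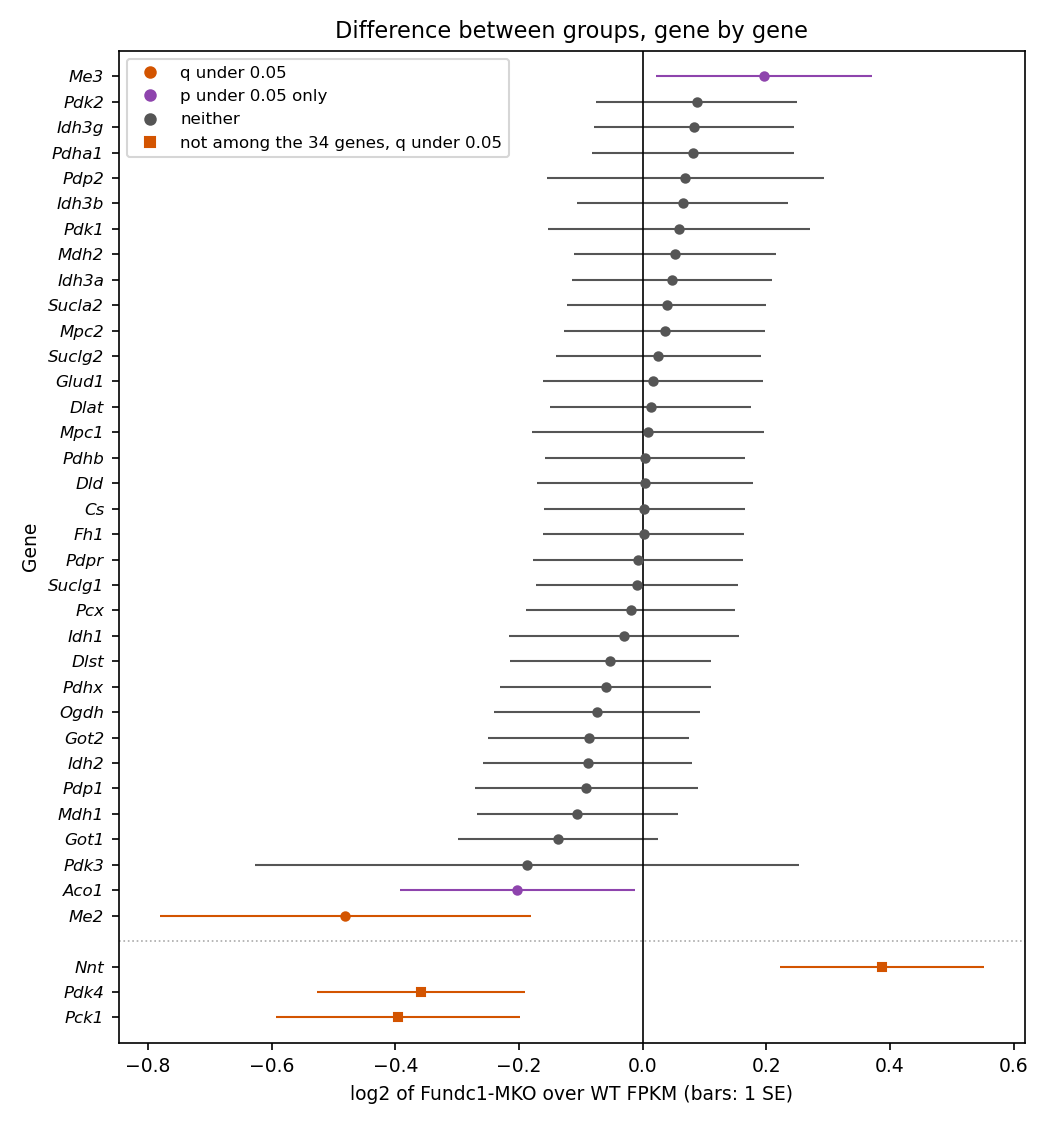
log2 of Fundc1-MKO over WT FPKM (x axis) with bars of 1 SE for each of the 34 genes (y axis, sorted), and below the dotted line Nnt, Pdk4 and Pck1, which had q under 0.05 and are not among the 34. In 31 of the 34 genes the bar crosses 0, and Me3, Aco1 and Me2 are the exceptions.

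Of 38 further genes of the cycle, its transporters and neighbouring reactions, 35 were tested, 1 rose and 2 fell. That is 8.57%, or 3 genes, against 3.17% of all tested rows. The list was chosen with earlier results of these data known, so this share is not an independent measure of the pathway. Nnt, the transhydrogenase that makes mitochondrial NADPH from NADH, rose to 71.1 FPKM in Fundc1-MKO, against 54.4 FPKM in WT, a log2 ratio of 0.39 (SE 0.17) with q = 0.00338 in the authors' deposited table. C57BL/6J mice are known to carry a deletion within Nnt, and the FPKM covers the whole gene. Neither the amount of working protein nor a difference between the groups at that deletion can be read from the FPKM. Pck1, the cytosolic phosphoenolpyruvate carboxykinase that withdraws oxaloacetate, fell to 5.93 FPKM in Fundc1-MKO, against 7.80 FPKM in WT, a log2 ratio of -0.40 (SE 0.20) with q = 0.00615 in the authors' deposited table. Pck1 is also expressed by fat cells. Of 9 adipocyte markers 7 were at higher and 2 at lower FPKM in Fundc1-MKO; Retn rose and none fell. The markers summed to 1091 FPKM in Fundc1-MKO and 930.1 FPKM in WT, with no marker at 0. Fabp4 held most of both sums, at 828 FPKM in Fundc1-MKO and 733 FPKM in WT, and was not called. Adipoq was at 32.3 FPKM in Fundc1-MKO and 32.1 FPKM in WT, and Lep at 2.08 FPKM in Fundc1-MKO and 2.54 FPKM in WT. Pdk4, given above, was the other gene that fell. The intervals of the groups overlap for all 3 genes, and none passes the normal reading of the statistic.

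None of the 4 succinate dehydrogenase subunits was called. Sdha was at 354 FPKM in Fundc1-MKO and 328 FPKM in WT, and Sdhb at 338 FPKM in Fundc1-MKO and 354 FPKM in WT. Sdhc was at 312 FPKM in Fundc1-MKO and 289 FPKM in WT, and Sdhd at 223 FPKM in both groups. Ldha, the lactate dehydrogenase subunit typical of fast muscle, was at 2353 FPKM in Fundc1-MKO and 2169 FPKM in WT, with q = 0.66 in the authors' deposited table. The citrate carrier gene Slc25a1 was at 3.80 FPKM in Fundc1-MKO and 2.86 FPKM in WT, with q = 0.066 in the authors' deposited table, the lowest among those not called.

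The 34 genes lie on 16 chromosomes, and 3 of them, Pdha1, Idh3g and Pdk3, lie on the X chromosome, as does Fundc1. In 10 of the 34 the deposited locus is shared with another tested gene, for example Dld with Lamb1 and Idh2 with Zfp710, and how the reads at those loci were divided between genes is not stated. RefSeq promoters, from 250 bases before to 50 after a start site in GRCm38.p6, matched 31 of the 34 symbols; Me2, Idh3a and Pdp1 had no entry. They were searched on both strands for the short site AAGGTCA of estrogen-related receptors and the core GCATGCG of nuclear respiratory factor 1, both known regulators of mitochondrial genes. The short site stood in the promoters of 2 of the 31 genes, or 6.45%, against 5.38% of all 27025 genes in that table. The core stood in 3 of 31, or 9.68%, against 4.01%. The matches are shown because they are all that this search found in the 31 genes, with the motif or its reverse complement in capitals, each read on the gene's strand; at Ogdh the core matches on both strands at overlapping positions and is shown once.
Ogdh short site, chr11:6292153-6292183 (+): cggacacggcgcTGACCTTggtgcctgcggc
Got1 short site, chr19:43524832-43524855 (-): cccagAAGGTCAggaggttgtcct
Ogdh core, chr11:6292533-6292563 (+): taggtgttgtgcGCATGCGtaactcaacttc
Pdhb core, chr14:8173150-8173180 (-): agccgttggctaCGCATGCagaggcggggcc
Glud1 core, chr14:34310583-34310613 (+): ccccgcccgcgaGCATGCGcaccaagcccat
A match is a description of the letters, not of a bound site.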

How the data were processed

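Libraries of gastrocnemius RNA were prepared with a NEBNext kit, according to the labels. Tools listed in the submitters' processing notes are Cufflinks 2.2.1, TopHat2 2.0.14, FastQC 0.11.3 and bcl2fastq, and the build is mm10; their roles, settings, annotation, strand and scaling are not stated there. Per the file headers, the deposited table holds 1 FPKM per gene and group with an interval, a test score, a p-value and a q-value.

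From these the log2 ratio and its SE were computed, with the upper part of an interval read as 2 SD; log2 ratio over SE came within 1% of the authors' statistic in 99.9% of 14100 rows. No linear model per library could be fitted, and the q of the authors' deposited table was counted instead, as the design foresaw. A normal reading of the authors' statistic was adjusted by Benjamini-Hochberg. The locus start was raised by 1, since it lay 1 below the RefSeq start in 7589 of 7803 loci. Every gene is named, with full statistics for those with p under 0.05 in the authors' table and the 3 highest and 3 lowest log2 ratios; further pathway genes are named where called, or as partners, and 1 gene of that list is not reported here. Got1, Mdh1, Ldha, Slc25a1, Ogdhl and Dcn were singled out after their values were seen. Members and lists were chosen with earlier results of these data known, and the roles were assigned with values in view. Python 3.11.15, numpy 2.4.6, pandas 2.3.3, scipy 1.17.1 and matplotlib 3.10.9 were used.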

Additional observations from a re-analysis of the deposited data

How the results depend on the processing

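Counts of calls depended on the rule. Among the 34 genes, the count of 0 higher and 1 lower in Fundc1-MKO became 1 higher and 2 lower by the authors' p without adjustment (below 0.05), and 0 lower when intervals had to lie apart or when the authors' statistic was read against a normal distribution with adjustment. It was 1 lower at q under 0.1 and when q was recomputed over single-gene rows with a mean of at least 1 FPKM (Me2, q = 0.0476). Among the other pathway genes, the count of 1 higher and 2 lower became 2 higher at q under 0.1, 2 higher and 3 lower by the p without adjustment, and 0 and 0 by the normal reading. The median log2 ratio of the 34 genes stayed within 0.02 of 0 under other pseudocounts, minimum levels and scalings. Equal medians of the groups shifted every log2 ratio by 0.016, giving 21 genes at higher and 13 at lower FPKM, and equal totals by 0.0042, giving 19 and 15. A pseudocount of 1 brought the log2 ratio to -0.31 for Me2, against -0.48 as deposited, and to -0.08 for Pdk3, against -0.19. For 9 log2 ratios of single genes and 18 shares, no alternative changed a direction that had a call or moved a value beyond its error, and Fundc1 kept its direction. The scalings shift all log2 ratios alike and by little, so they could hardly move one beyond its error. For the shares, all genes of a set were moved to the same bound together, which can hardly change a share. With bounds opposed, the Pdk4 share spanned 59.8% to 74.3% in Fundc1-MKO and 66.8% to 79.7% in WT. No paired analysis was possible because the table holds 1 value per group, and leaving out a replicate was not possible for the same reason.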
